A study of Mus musculus with 3 samples.

Results

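Zmym2 overexpression (OE) was compared directly with Zmym2 knockout (KO), the pair of libraries with the widest difference in Zmym2 dose in the series. The comparison covered every gene whose mean over OE and KO was at least 50 normalised counts, which left 12976 of 39179 genes (33.1%), of which 12436 were protein-coding. All cells were E14tg2a, a male mouse embryonic stem cell (ESC) line, grown on gelatin in Serum Plus LIF, the cytokine that keeps mouse ESCs undifferentiated. The OE cells carried a Zmym2 transgene stably integrated with the PiggyBac transposon and had been drug-selected, whereas the KO cells were a clone in which Cas9 had put frameshifts into both Zmym2 alleles. The wild-type (WT) cells were unmodified and were used only to say whether the WT level lay between the other libraries or outside them. There was 1 library per condition and no library of cells with an empty vector, so transfection, drug selection and cloning cannot be separated from the dose of Zmym2: their effects cannot be told apart. No difference below has a replicate check, no p-value was computed, and each statement describes these libraries.

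ZMYM2, also called ZFP198, is a nuclear protein with MYM-type zinc fingers that binds SUMO-modified proteins and is found with the LSD1-CoREST-HDAC corepressor complex, which removes activating histone marks. It has also been found with the repressors TRIM28 and PRC1.6, which silence transposable elements and germline genes in ESCs. Mouse ESCs in serum express the core factors of pluripotency, and a minority of cells pass in and out of states that express differentiation genes or genes of the 2-cell embryo.

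Zmym2 itself (ENSMUSG00000021945, chromosome 14 of GRCm38, 56886653 to 56962701) had 57139 normalised counts in OE, 4370 in KO and 7956 in WT. The ratio of OE over KO was 13.1 (95% counting interval 12.7 to 13.5). The level thus followed the titles of the libraries, which give the names used here, whereas the line descriptions stored with the KO and OE libraries are reversed relative to those titles. Frameshifts can leave mRNA in place, and neighbours of Zmym2 on chromosome 14 were also lower in KO (described further on), so the mRNA level says little about the loss of the protein. For the protein, the paper reports Western blots of these ESC lines, and it states that the knockout clone was sequenced. All intervals are exact, were computed from the recovered reads and cover counting error only. The libraries held 41840774 gene reads in OE, 46995766 in KO and 50120551 in WT, and the upper limit taken for a gene with 0 reads was 3 reads, which is 3.30 normalised counts in OE, 3.03 in KO and 2.83 in WT.

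All 3 libraries expressed the markers of ESCs. Pou5f1, the transcription factor that defines the pluripotent state, had 31522 normalised counts in OE, 34070 in KO and 36973 in WT, and Nanog had 15810 in OE, 16744 in KO and 17584 in WT. Over the 7 ESC markers examined, the ratio of OE over KO ran between 0.647 for Zfp42 and 0.944 for Nanog, and 0 were 2-fold apart.

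A 2-fold difference or more separated OE and KO for 2449 of the 12976 genes (18.9%), with OE the higher library for 1716 (13.2%) and the lower one for 733 (5.65%). The excess of higher genes widened with the size of the difference. At least 4-fold there were 697 higher (5.37%) and 220 lower (1.7%), at least 8-fold 324 and 80, and at least 16-fold 163 and 32. The median log2 ratio over all genes was 0.01, with a 5th percentile of -1.08 and a 95th of 2.07. Among the 2449 genes, 70.1% were higher. This share was 62.7% (1500 higher and 892 lower) when the libraries were scaled to a list of housekeeping genes, which shifted the log2 ratio of every gene by -0.13. The list contained B2m, 4.07-fold higher in OE, and without B2m the counts were 1685 and 746.

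Low values in one library entered many of these calls. There were 575 genes under 50 normalised counts in KO, of which 492 were among those 2-fold higher, and 332 under 50 in OE, of which 257 were among those 2-fold lower. Such genes passed the minimum through the library in which they were high. Among the 12069 genes at 50 or more in both libraries, 1224 were higher and 476 lower. Just inside the minimum lay Myl7, with 26.4 normalised counts in OE and 73.7 in KO, and Gm26852, with 49.5 in OE and 50.5 in KO. Just outside it lay Lnx1, with 72.6 in OE and 27.3 in KO, and C130071C03Rik, with 48.4 in OE and 51.5 in KO. Non-coding genes ran against the general direction. Of 159 lincRNAs 11 were higher and 32 lower, of 55 antisense RNAs 4 and 10, and of 199 pseudogenes 4 and 21, against 1683 and 654 of the protein-coding genes.

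**Figure D1:**
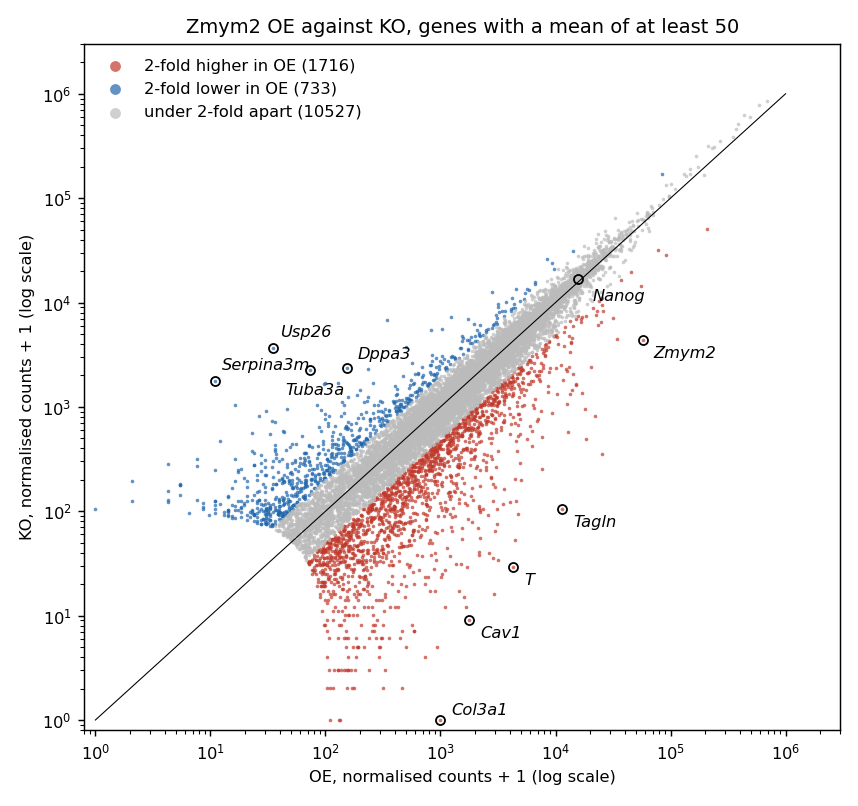
Each point is 1 of 12976 genes, with its normalised counts in OE (horizontal axis) and in KO (vertical axis), both plus 1 on log scales. The 1716 red genes lie below the line of equality with OE at least 2-fold above KO, the 733 blue genes lie above it with OE at least 2-fold below KO, and the 10527 grey genes are less than 2-fold apart. Circles mark named genes.

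The question the WT library answers is whether a difference between OE and KO was graded with the Zmym2 dose. WT lay strictly between OE and KO for 55.9% of all 12976 genes, and for 84.8% of the higher genes and 80.5% of the lower genes. Choosing genes for a wide gap between OE and KO itself raises this share, so the higher figures are given as a description. The WT level was called stepwise where it lay between and at least 25% from both libraries, taking the higher level of each pair over the lower. This held for 999 of the 1716 higher genes (58.2%) and 419 of the 733 lower genes (57.2%). Over all 12976 genes it held for 1630 (12.6%). A gene can be stepwise only where OE and KO are apart, so this share too rises with the gap. The stepwise counts of the lists below stand beside the 58.2% and 57.2%. At least 8-fold apart, 296 of 324 higher genes and 72 of 80 lower genes were stepwise.

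The place of WT within the gap differed between the directions. On a log scale on which KO is 0 and OE is 1, the median place of WT was 0.26 for the higher genes and 0.46 for the lower genes. WT was nearer to KO than to OE for 1428 of the 1716 higher genes (83.2%) and for 404 of the 733 lower genes (55.1%). Within 25% of KO were 540 of the higher genes and 161 of the lower genes, and within 25% of OE were 91 and 88. A WT level beyond KO by 25% or more was found for 83 higher and 20 lower genes, and one beyond OE for 3 higher and 45 lower genes. The higher genes were thus mostly separated by what OE had above WT, with a smaller step between WT and KO. The lower genes were split more evenly.

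**Figure D2:**
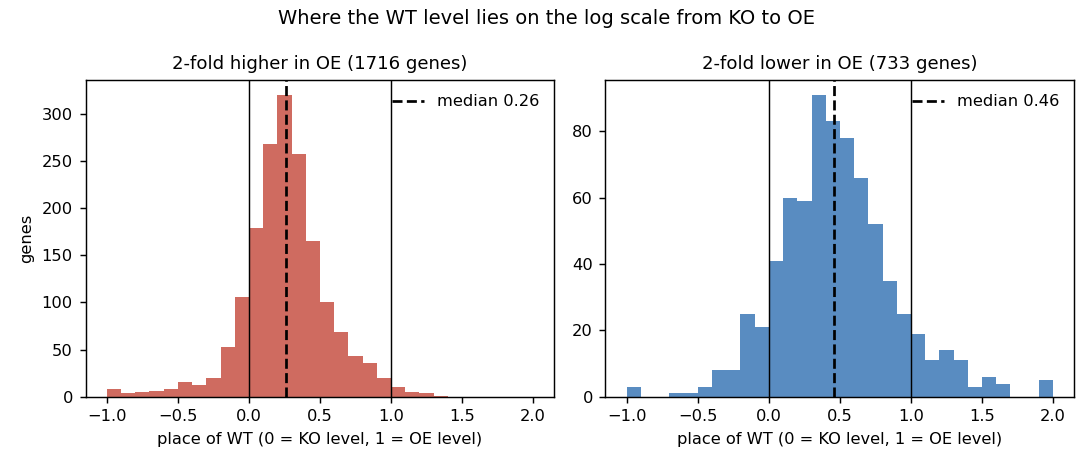
The histograms give the number of genes by the place of the WT level on the log scale between KO (0) and OE (1), for the 1716 genes 2-fold higher in OE (left) and the 733 genes 2-fold lower (right). Dashed lines mark the medians, 0.26 and 0.46, and places below -1 or above 2 are drawn in the end bins.

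The largest ratios were those of genes that were almost silent in KO. Col3a1, which encodes a fibrillar collagen, had 992 normalised counts in OE, 0 in KO and 77.5 in WT, so that OE was at least 327-fold higher, taking 3 reads in KO as the limit. Cav1, which encodes the main coat protein of caveolae (ENSMUSG00000007655, chromosome 6, 17306335 to 17341452), had 1772 in OE, 8.08 in KO and 134 in WT, a ratio of 219 (111 to 509). Tgfb2, a TGF-β ligand, had 2947 in OE, 15.2 in KO and 179 in WT, a ratio of 195 (118 to 348). For these genes WT stood near the middle of the gap, at a place of 0.63, 0.51 and 0.46. Mab21l2 had 317 in OE, 1.01 in KO and 8.50 in WT, but with 1 read in KO its ratio of 314 has an interval of 55.9 to 12435. Cxcl11, Pcdh11x and H2-M2 had 132, 108 and 131 normalised counts in OE and 0 reads in KO, at least 43.6-, 35.6- and 43.2-fold higher.

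Genes of the contractile cytoskeleton, which build stress fibres and smooth muscle and are known targets of the serum response factor SRF, differed in 1 direction. Of 32 members 24 were 2-fold higher and 0 lower, against 13.2% and 5.65% of all genes, and the median log2 ratio was 1.98 against 0.01. The counts of every list below stand beside these same shares. Tagln, which encodes the actin-binding protein transgelin (ENSMUSG00000032085, chromosome 9, 45929619 to 45936058), had 11495 normalised counts in OE, 105 in KO and 929 in WT. Its ratio of OE over KO was 109 (90.2 to 134). Acta2, smooth muscle actin, had 4408 in OE, 51.5 in KO and 712 in WT, a ratio of 85.6 (64.9 to 115). In both genes the step between WT and KO was as plain as that between OE and WT. The skeletal and cardiac actins, Acta1 and Actc1, had 1601 and 500 in OE, 14.1 and 4.04 in KO, and 104 and 17.0 in WT, with ratios of 113 and 124. Cald1, encoding caldesmon, had 22233 in OE, 811 in KO and 2619 in WT, a ratio of 27.4 (25.5 to 29.4). Of the 24 higher members 16 were stepwise and 8 had WT within 25% of KO. The remaining 8 members had ratios of 1.3 to 1.95, and Srf itself had 5447 in OE, 3558 in KO and 3711 in WT.

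Promoter sequences of genes of this group are shown because several hold the CArG box, the sequence bound by SRF. RefSeq windows of 250 bases before to 50 bases after each start site (GRCm38.p6) were available for 30 members. A gene counted where any of its windows held the letters on either strand. By this count 9 of the 30 (30%) held a CArG box, against 1.49% of all 9479 compared genes that had a window. Taken as single windows, 1.63% of all 32851 held one. Among the 1217 genes 2-fold higher in OE with a window the share was 2.22%, and among the 492 genes 2-fold lower it was 1.22%. The list was drawn up from known contractile genes, so its share describes the list. A match is a description of these letters and no evidence of binding. In the windows of Acta1 and Actc1, printed 5′ to 3′ along the gene, the CArG box is in capitals and starts 73 and 47 bases before the start site.
Acta1 (chr8:123894726-123895025, minus strand): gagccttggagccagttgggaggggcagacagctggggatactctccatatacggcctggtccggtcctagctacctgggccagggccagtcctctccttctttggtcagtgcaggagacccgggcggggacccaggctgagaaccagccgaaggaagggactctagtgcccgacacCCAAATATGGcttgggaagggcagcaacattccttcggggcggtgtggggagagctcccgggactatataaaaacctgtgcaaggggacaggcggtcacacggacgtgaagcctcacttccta
Actc1 (chr2:114052826-114053125, minus strand): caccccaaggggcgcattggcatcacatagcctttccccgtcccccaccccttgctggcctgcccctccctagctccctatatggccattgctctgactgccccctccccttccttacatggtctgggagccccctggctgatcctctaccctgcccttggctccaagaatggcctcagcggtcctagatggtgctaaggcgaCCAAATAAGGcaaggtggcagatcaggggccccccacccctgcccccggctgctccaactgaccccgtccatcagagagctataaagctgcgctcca

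Targets of the co-activators YAP and TAZ, which act with TEAD factors in spread cells under tension, and components of caveolae were as one-sided, with 24 of 27 members higher, 0 lower and a median log2 ratio of 2.23. Cav2, the partner of Cav1, had 256 normalised counts in OE, 7.07 in KO and 28.3 in WT. Ankrd1, a classical YAP target, had 188 in OE, 4.04 in KO and 29.3 in WT, a ratio of 46.6 (17.9 to 173). Axl, a receptor tyrosine kinase, had 2602 in OE, 91.9 in KO and 300 in WT, a ratio of 28.3 (23 to 35.3). Of the 24 higher members 15 were stepwise. The classical targets Ctgf and Cyr61 had smaller ratios. Ctgf had 6160 in OE, 2332 in KO and 2672 in WT, and Cyr61 had 10265 in OE, 1341 in KO and 1888 in WT. Yap1 itself had 10510 in OE, 9061 in KO and 9978 in WT, under 2-fold apart. The letters GGAATG, the core bound by TEAD factors, were found on either strand in 10 of the 18 genes of this list with a window (55.6%). The share was 14.4% of all genes compared, 18.8% of the higher genes and 14.4% of the lower genes, and 14.7% of single windows. The letters were also in 13 of the 30 genes of the contractile list with a window (43.3%). The window of Ankrd1 holds them at 210 and 123 bases before the start site, in capitals.
Ankrd1 (chr19:36119795-36120094, minus strand): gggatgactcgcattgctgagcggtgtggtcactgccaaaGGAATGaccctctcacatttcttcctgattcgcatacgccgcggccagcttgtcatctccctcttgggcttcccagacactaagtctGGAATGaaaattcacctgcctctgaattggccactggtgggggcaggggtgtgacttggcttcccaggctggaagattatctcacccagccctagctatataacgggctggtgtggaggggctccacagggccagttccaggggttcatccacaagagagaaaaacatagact

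Genes of the extracellular matrix followed. Of 36 collagens, matrix proteins and their modifying enzymes 26 were higher and 0 lower, with a median log2 ratio of 2.62, and 20 of the 26 were stepwise. Thbs1, encoding the adhesive glycoprotein thrombospondin, had 25317 normalised counts in OE, 352 in KO and 1946 in WT, a ratio of 72.0 (64.8 to 80.3). Col1a1 had 3077 in OE, 74.8 in KO and 674 in WT, a ratio of 41.2 (32.7 to 52.6). Tnc, encoding tenascin, had 926 in OE, 4.04 in KO and 93.5 in WT, and Lox, a collagen cross-linking enzyme, had 448 in OE, 5.05 in KO and 19.8 in WT. Fn1, encoding fibronectin, was under 2-fold apart, with 65461 in OE, 48567 in KO and 53396 in WT. Matrix proteases had 14 of 22 members higher and 0 lower. Prss23, a secreted serine protease, had 1675 in OE, 11.1 in KO and 182 in WT, a ratio of 151 (84.0 to 303). Integrins and laminins had 12 of 24 higher and 2 lower. Lamb3 had 403 in OE, 11.1 in KO and 29.3 in WT, and Itga3, an integrin that binds laminin, had 20322 in OE, 2427 in KO and 4782 in WT.

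Markers of fibroblasts were in part higher as well. Summed over the list, they had 11070 normalised counts in OE, 2511 in KO and 3660 in WT. Acta2, with 4408, and Col1a1, with 3077, made up most of the OE sum, and Fbln1 most of the KO sum. Of 9 members above the minimum 6 were higher and 0 lower. Of these 6, Acta2, Col1a1, Col1a2, Col3a1 and Dcn are also on the contractile or matrix lists, and the other is Pdgfrb. Of the 3 under 2-fold apart, Fbln1, a matrix protein gene, had 1433 in OE, 1854 in KO and 1688 in WT, a ratio of 0.773 (0.719 to 0.830), and Pdgfra had 78.1 in OE, 84.9 in KO and 67.1 in WT. Dcn had 133 in OE, 22.2 in KO and 5.67 in WT, and Thy1 had 310 in OE, 307 in KO and 191 in WT. Of the markers under the minimum mean, Fap and Mgp had 0 reads in all 3 libraries, and the others were higher in OE. Twist2 had 75.9 in OE, 2.02 in KO and 4.72 in WT, and Prrx1 had 60.5, 6.06 and 10.4. S100a4 had 49.5 in OE, 3.03 in KO and 5.67 in WT, Lum had 42.9, 12.1 and 0, and Postn had 41.8, 0 and 2.83. In such bulk RNA, more cells of one kind and more RNA per cell cannot be told apart, and the part of other cell types in these results was not tested.

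Epithelial genes were also higher, as were most of the mesenchymal genes compared. Of the latter, Cd44, Axl, Zeb2, Cdh2, Lgals1, Vim, Cdh11, S100a6 and Snai2 were 2-fold higher and Zeb1 was lower. Twist1, Snai1, Fn1, Tcf4 and Thy1 were under 2-fold apart. Cd44 had the highest ratio of the list, 42.8 (28.6 to 67.1). Of the mesenchymal factors, Zeb2 had 1447 normalised counts in OE, 266 in KO and 467 in WT. Zeb1 went the other way, with 358 in OE, 923 in KO and 803 in WT, a level 2.58-fold lower in OE (2.27 to 2.94). Snai1 was under 2-fold apart, with 394 in OE, 280 in KO and 190 in WT. Of 31 genes of keratins and cell junctions 17 were higher, 15 of them stepwise, and 0 were lower. Krt8 had 18258 normalised counts in OE, 491 in KO and 1471 in WT, a ratio of 37.2 (34.0 to 40.8). Krt18, its filament partner, had 12754 in OE, 580 in KO and 1292 in WT, and Krt19 had 4752 in OE, 92.9 in KO and 356 in WT. These keratins mark simple epithelia and the trophectoderm. Dsc2, which encodes a desmosomal cadherin, had 2205 in OE, 54.6 in KO and 146 in WT, a ratio of 40.4 (30.9 to 54.0). Cdh1 (E-cadherin) had 43925 in OE, 32287 in KO and 39650 in WT, under 2-fold apart, while Cdh2 (N-cadherin) had 3557 in OE, 747 in KO and 1410 in WT.

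Genes of the immediate early response, which serum and mechanical stimuli induce within minutes, were higher in 13 of 18 cases and lower in 0, with a median log2 ratio of 1.75. Atf3 had 427 normalised counts in OE, 11.1 in KO and 28.3 in WT, a ratio of 38.4 (21.2 to 77.6). Fosl2 had 2226 in OE, 98.0 in KO and 276 in WT, and Jun had 1906 in OE, 127 in KO and 382 in WT. Both encode subunits of AP-1. Egr1, another early factor, had 2193 in OE, 1279 in KO and 1381 in WT, under 2-fold apart. In the TGF-β pathway 13 of 24 members were higher and 0 lower. Among its ligands Tgfb2 is given above, Tgfb3 had 114 in OE, 8.08 in KO and 14.2 in WT, and Inhba had 109 in OE, 1.01 in KO (1 read) and 11.3 in WT. The receptor Tgfbr2 had 534 in OE, 46.5 in KO and 73.7 in WT, a ratio of 11.5 (8.48 to 15.9). Nodal, by contrast, had 3061 in OE, 2155 in KO and 2195 in WT.

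**Figure D3:**
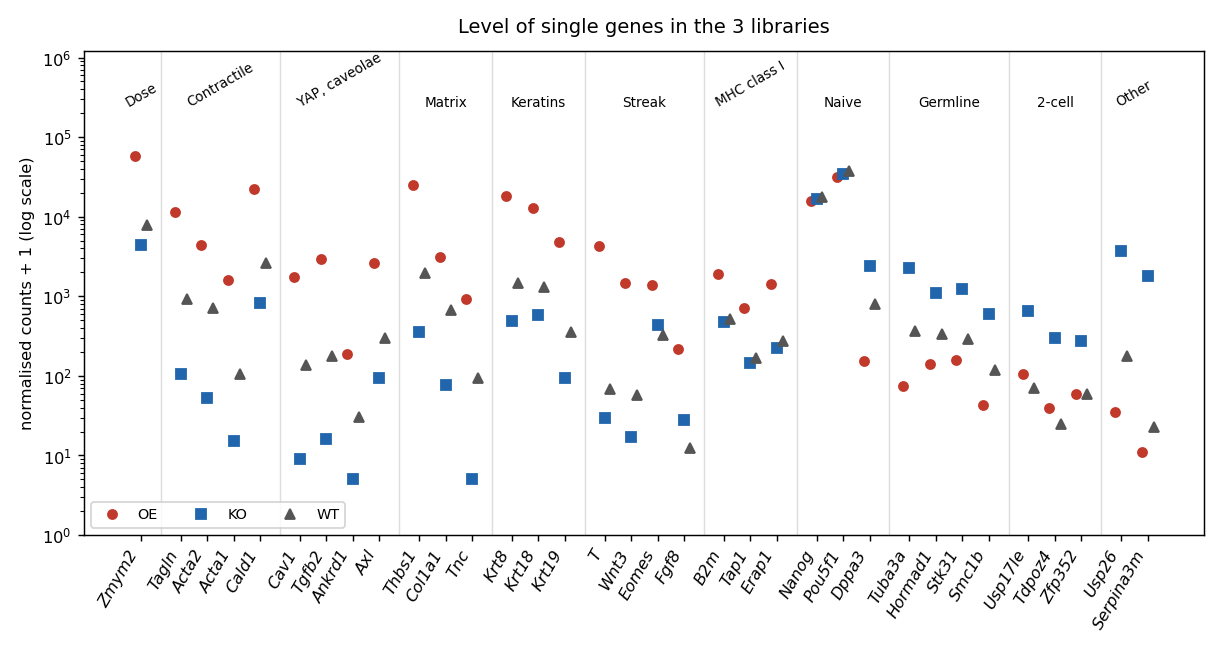
Points give the normalised counts plus 1 (log scale) of single genes in OE (red circles), KO (blue squares) and WT (grey triangles), 1 library each, grouped by role. In the contractile, YAP, matrix and keratin genes WT lies between OE and KO, in B2m, Tap1 and Erap1 WT lies beside KO, and in the 2-cell genes it lies beside or below OE.

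Genes of the primitive streak, the structure from which mesoderm and endoderm arise, were higher in 13 of 15 cases and lower in 0, with a median log2 ratio of 2.93. T (Brachyury), a transcription factor of nascent mesoderm (ENSMUSG00000062327, chromosome 17, 8434423 to 8442496), had 4292 normalised counts in OE, 28.3 in KO and 67.1 in WT. Its ratio of OE over KO was 152 (105 to 229), and the place of WT was 0.17. Wnt3, the ligand that starts the streak, had 1452 in OE, 16.2 in KO and 56.7 in WT, a ratio of 89.8 (55.1 to 158). Cdx2, a caudal and trophectoderm factor, had 806 in OE, 16.2 in KO and 41.6 in WT, and Sp5, a Wnt target, had 3543 in OE, 162 in KO and 367 in WT. Of the 13 higher genes 7 were stepwise. In the other 6 WT was within 25% of KO or below it. Eomes, a factor of the streak and of trophoblast, had 1401 in OE, 433 in KO and 326 in WT, a ratio of 3.23 (2.90 to 3.61). Fgf8 had 215 in OE, 27.3 in KO and 11.3 in WT, a ratio of 7.87 (5.24 to 12.2). For these genes KO was not the low end, and the difference from KO did not follow the order of the Zmym2 dose.

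Other lineages gave mixed counts. Of 20 trophectoderm genes 13 were higher and 1 lower, of 18 genes of later mesoderm 9 and 3, of 18 of primitive endoderm 10 and 2, of 11 of definitive endoderm 5 and 0, and of 12 of neuroectoderm 5 and 2, against 13.2% higher and 5.65% lower over all genes. The 3 keratins above are on the trophectoderm list, and Krt8, Krt18 and Krt19 also account for 3 of the 5 higher genes of definitive endoderm, and another, Gata4, lies in the chromosome 14 segment. Gata4 is also among the higher genes of primitive endoderm. Of the others there, Col4a1, Col4a2, Serpinh1 and Sparc are also on the matrix list and Fst on that of the primitive streak. Gata6, a factor on both endoderm lists, was under 2-fold apart, with 134 in OE, 116 in KO and 85.0 in WT. Bmp2, a mesodermal ligand, had 292 in OE, 4.04 in KO and 22.7 in WT, and Hand1, a factor of heart and trophoblast, had 563 in OE, 58.6 in KO and 114 in WT. The 3 lower genes of later mesoderm were Gata1, Myl4 and Myl7. Gata1, an erythroid factor, had 15.4 in OE, 101 in KO and 41.6 in WT, a level 6.56-fold lower in OE (3.73 to 12.4). On the neuroectoderm list Nes had the highest ratio, with 9400 in OE, 879 in KO and 1326 in WT, a ratio of 10.7 (9.97 to 11.5). Vim, another higher gene of this list, is also on the mesenchymal list. Hes3, a neural repressor, had 15.4 in OE, 316 in KO and 231 in WT, a level 20.5-fold lower (12 to 38.0). Pax6, the other lower gene, had 605 in OE, 1399 in KO and 1726 in WT, 2.31-fold lower (2.09 to 2.56). Sox1, a neural factor, had 207 in OE, 193 in KO and 508 in WT, so that the interval of OE over KO (0.872 to 1.32) included 1 and both lay under WT.

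Guidance ligands and receptors, which steer axons and migrating cells, had 21 of 37 members higher and 0 lower, with a median log2 ratio of 1.27. Robo2, a Slit receptor, had 466 normalised counts in OE, 6.06 in KO and 34.0 in WT, a ratio of 76.8 (35.0 to 210). Sema3c, a secreted semaphorin, had 1885 in OE, 77.8 in KO and 129 in WT, and its receptor Nrp1 had 352 in OE, 20.2 in KO and 54.8 in WT. The other 16 members were under 2-fold apart, among them Robo1, the relative of Robo2, with 2018 in OE, 2030 in KO and 2312 in WT. The neurofilament genes Nefm and Nefl had 2997 and 6966 in OE, 63.6 and 738 in KO, and 114 and 1431 in WT, but both lie in the segment of chromosome 14 described below.

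In genes of antigen presentation WT was mostly beside or below KO. Of 24 genes of MHC class I and the interferon response 11 were higher and 1 lower, against 13.2% and 5.65% of all genes. The median log2 ratio was 0.80. Of the 11 higher genes 1 was stepwise, 7 had WT within 25% of KO and 3 had WT further below KO. B2m, the invariant chain of MHC class I, had 1922 normalised counts in OE, 472 in KO and 523 in WT, a ratio of 4.07 (3.68 to 4.52). The peptide transporter gene Tap1 had 703 in OE, 144 in KO and 166 in WT, and Erap1, which trims peptides, had 1406 in OE, 224 in KO and 273 in WT. Tap2, the partner of Tap1, had 287 in OE, 57.6 in KO and 42.5 in WT, and Psmb8, an immunoproteasome subunit, had 196 in OE, 33.3 in KO and 23.6 in WT, so that WT was the lowest of the 3 libraries in both. The heavy chains H2-K1 and H2-D1 (named after their values were seen) had 1243 and 633 in OE, 475 and 174 in KO, and 489 and 203 in WT. Gbp2, an interferon-induced GTPase and the stepwise member, had 3987 in OE, 121 in KO and 195 in WT, a ratio of 32.9 (27.4 to 39.8). Ifitm3, an interferon-induced membrane protein gene, was under 2-fold apart, with 3661 in OE, 5281 in KO and 4456 in WT. WT beside KO was also found for Igfbp3, which had 17130 in OE, 1346 in KO and 1401 in WT, and for Wnt6, which had 478 in OE, 23.2 in KO and 21.7 in WT.

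Imprinted genes, expressed from a single parental copy, went both ways, with 9 of 29 higher and 3 lower, against 13.2% and 5.65% of all genes. Igf2, the fetal growth factor, had 4883 normalised counts in OE, 292 in KO and 738 in WT, a ratio of 16.7 (14.8 to 18.9). H19, transcribed beside it from the other parental copy, had 5689 in OE, 5581 in KO and 4274 in WT. The neighbours thus differed. Peg10 had 207039 in OE, 50885 in KO and 83923 in WT, a ratio of 4.07 (4.03 to 4.11). Usp29 had 26.4 in OE, 344 in KO and 60.5 in WT, a level 13.0-fold lower in OE (8.62 to 20.6).

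**Figure D4:**
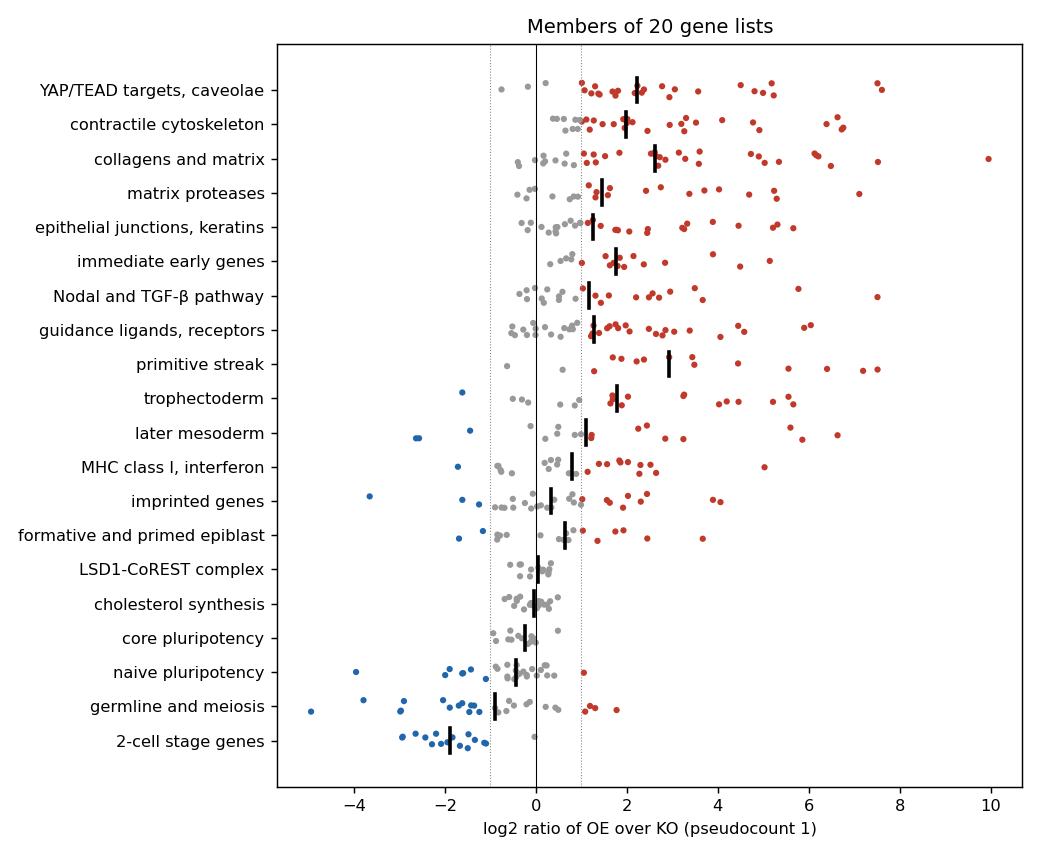
Each point is a member of 1 of 20 gene lists with its log2 ratio of OE over KO on the horizontal axis, red where at least 2-fold higher in OE, blue where at least 2-fold lower, grey otherwise. Black bars are list medians, which include 2.93 for the primitive streak, 2.62 for collagens and matrix and -1.89 for the 2-cell stage, and dotted lines mark 2-fold.

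The pluripotency genes were lower in OE only in part. Of 14 core factors 0 were 2-fold apart, with a median log2 ratio of -0.24. Of 29 naive genes, which mark ESCs that resemble the preimplantation epiblast, 7 were lower and 1 higher, with a median of -0.44. Dppa3, a maternal factor that protects DNA methylation in the zygote, had 152 normalised counts in OE, 2370 in KO and 805 in WT, a level 15.6-fold lower in OE (13.1 to 18.7). Morc1, a germline ATPase that silences transposons, had 1750 in OE, 6979 in KO and 4087 in WT, and Tex19.1 had 1546 in OE, 4756 in KO and 2143 in WT. These 3 were the stepwise members. In the other 4 WT lay within 25% of KO, as in Fbxo15, with 3720 in OE, 10018 in KO and 8325 in WT, and Pecam1, with 843 in OE, 3142 in KO and 2777 in WT. Tdh, the 1 higher gene, lies in the chromosome 14 segment and had 12137 in OE, 5844 in KO and 13980 in WT. Genes of the formative and primed epiblast split, with 6 of 18 higher and 2 lower. Fgf5 had 502 in OE, 131 in KO and 70.9 in WT, while Otx2, a head and epiblast factor, had 909 in OE, 2938 in KO and 1769 in WT. Of the DNA methyltransferase family, Dnmt3l and Dnmt3a were 2-fold lower in OE, with 9397 and 5443 in OE, 23987 and 12211 in KO, and 17291 and 13052 in WT. Dnmt3b and Dnmt1 were under 2-fold apart, with ratios of OE over KO of 0.554 and 0.816.

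Germline genes, most of which are silent in somatic cells, were more often lower than higher. Of 27 members 13 were lower and 4 higher, against 5.65% and 13.2% of all genes, with a median log2 ratio of -0.90, and 9 of the 13 were stepwise. Tuba3a, a testis tubulin (ENSMUSG00000067702, whose reads may be shared with the near-identical Tuba3b), had 72.6 normalised counts in OE, 2267 in KO and 369 in WT, a level 31.2-fold lower in OE (24.4 to 40.5). Smc1b, the meiotic cohesin subunit, had 41.8 in OE, 592 in KO and 119 in WT, 14.2-fold lower (10.2 to 20.2). Hormad1, a protein of the meiotic chromosome axis, had 139 in OE, 1103 in KO and 337 in WT, 7.96-fold lower (6.61 to 9.64). Stk31, a kinase-like testis protein, had 156 in OE, 1230 in KO and 286 in WT, 7.87-fold lower (6.61 to 9.44). In all 4 WT lay between, at a place of 0.53 to 0.71. The 4 higher members were Tdrd5, Tdrkh, Tdrd1 and Rec8, of which the first had 614 in OE, 179 in KO and 305 in WT and the others were 2.13- to 2.48-fold higher. Rec8 lies in the chromosome 14 segment.

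The letters CACGTG, an E-box that PRC1.6 components such as MGA bind, are shown for this group. They were found in 11 of the 24 genes of the germline list with a window (45.8%), against 12.1% of all genes compared and 7.15% of single windows. Over all genes 2-fold lower in OE the share was 12.4%, close to the 12.1% of all genes compared, so the lower genes at large did not stand apart. The same letters were in 5 of 14 genes with a window of the immediate early list (35.7%) and 4 of 18 of the YAP and caveolae list (22.2%). Members of both lists were higher in OE or under 2-fold apart. The window of Hormad1 holds it at 57 and 20 bases before the start site, in capitals. Of the other motifs searched, TGANTCA, the AP-1 site, was found in 8.38% of the higher genes with a window and 9.55% of the lower genes. This stood against 5.75% of all genes compared and 7.81% of all windows. CTTTGAT, the TCF site, was found in 3.20% and 4.88%, against 2.99% of all genes compared and 3.73% of all windows.
Hormad1 (chr3:95559427-95559726, plus strand): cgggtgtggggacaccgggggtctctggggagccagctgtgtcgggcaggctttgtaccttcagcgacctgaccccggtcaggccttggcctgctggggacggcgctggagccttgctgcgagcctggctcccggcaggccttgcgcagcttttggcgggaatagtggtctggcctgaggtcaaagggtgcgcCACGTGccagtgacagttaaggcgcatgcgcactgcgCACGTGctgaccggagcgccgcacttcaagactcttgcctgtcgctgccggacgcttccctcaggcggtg

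Beyond the list, the genes with the widest gaps on the lower side included a deubiquitinase, protease inhibitors and axonemal genes. Usp26, an X-linked testis deubiquitinase, had 34.1 normalised counts in OE, 3687 in KO and 175 in WT, a level 108-fold lower in OE (76.0 to 159). Serpina3m, a serine protease inhibitor gene of a repeated cluster, had 9.90 in OE, 1786 in KO and 21.7 in WT, 180-fold lower (94.8 to 395). Its neighbour Serpina3k had 1.1 in OE (1 read), 123 in KO and 0 in WT, and reads of these near-identical genes may be shared. The axonemal genes Dnah12 and Hydin had 15.4 and 25.3 in OE, 1044 and 816 in KO, and 35.0 and 194 in WT, 67.7- and 32.2-fold lower. Hydin was stepwise, with WT slightly nearer to KO than to OE. Of 15 cilia genes 5 were lower and 1 higher, against 5.65% and 13.2% of all genes. The other lower members included Dnah6, 2.59-fold lower, and Ccdc40, 2.10-fold lower. The higher member, Foxj1, the master factor of motile cilia, had 263 in OE, 38.4 in KO and 111 in WT.

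On the Y chromosome the difference was also on the lower side. Of 8 on the chromosome with the minimum mean 4 were lower and 0 higher. Uba1y had 233 in OE, 2300 in KO and 551 in WT, 9.86-fold lower in OE (8.56 to 11.4), and Usp9y had 11 in OE, 475 in KO and 13.2 in WT, 43.1-fold lower (23.3 to 90.6). Zfy1 and Kdm5d were 40.8- and 32.4-fold lower. Eif2s3y and Ddx3y, which are expressed in most male cells, had 2319 and 2007 in OE, 3449 and 2967 in KO, and 2637 and 2052 in WT. Uty had 1390 in OE, 2031 in KO and 1773 in WT. RNA of Y-linked genes was thus found in all 3 libraries, and whether all cells kept the chromosome was not tested.

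Genes of the 2-cell stage, which a rare subset of ESCs expresses, were lower in OE in 15 of 16 cases, with a median log2 ratio of -1.89, yet 0 of the 15 were stepwise. WT was below both libraries in 13 of the 15. Usp17le had 105 normalised counts in OE, 660 in KO and 69.9 in WT, 6.31-fold lower in OE than in KO (5.08 to 7.91). Tdpoz4 had 38.5 in OE, 300 in KO and 23.6 in WT, and Zfp352 had 58.3 in OE, 271 in KO and 57.6 in WT. The Zscan4 genes, the usual markers of this state (named after their values were seen), had 112 to 308 in OE, 435 to 783 in KO and 79.4 to 190 in WT. The difference between OE and KO was therefore a high level in KO, and it did not follow the order of the Zmym2 dose. OE was within 25% of WT or further above it. The latter held for Sp110, with 33.0 in OE, 73.7 in KO and 11.3 in WT, and for Arg2, with 56.1 in OE, 121 in KO and 24.6 in WT. The members of the Zscan4, Usp17l and Tdpoz families are near-identical copies whose reads can be shared, so that single members are uncertain and they are not independent cases. Eif1a, the 1 member that was not lower, had 9772 in OE, 9972 in KO and 10075 in WT.

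Few genes of complexes linked to ZMYM2 were 2-fold apart, against 18.9% of all genes, but the lists are short and overlap. Hdac1 and Hdac2 are on both the LSD1-CoREST and PRC1.6 lists, and Cbx1 and Cbx3 on both the PRC1.6 and TRIM28 lists. Of 13 genes of the LSD1-CoREST complex 0 were 2-fold apart, with a median log2 ratio of 0.05, of 15 of PRC1.6 1 was higher (Yaf2) and 0 lower, and of 15 of the TRIM28 pathway 0 were higher and 1 lower (Zfp809). Trim28 had 101013 normalised counts in OE, 136637 in KO and 116290 in WT. Among the relatives of Zmym2, Zmym5 had 1504 in OE, 904 in KO and 1424 in WT and Zmym3 had 2837 in OE, 4111 in KO and 4877 in WT, and Zmym2 was the 1 of 7 family members at least 2-fold apart. Zmym5 lies in the chromosome 14 segment. Of 19 genes of cholesterol synthesis 0 were 2-fold apart, against 18.9% of all genes. In the core cell cycle 3 of 22 were higher and 1 lower, shares close to the 13.2% and 5.65% of all genes. In glycolysis, against the same shares, 2 of 24 were higher and 0 lower. These were the glucose transporter gene Slc2a3, with 91311 in OE, 28533 in KO and 43424 in WT, and Pfkfb3, a regulator of glycolysis, with 4079 in OE, 1481 in KO and 1273 in WT.

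Along the genome 1 segment of chromosome 14 stood apart on the higher side. Of 226 windows of 10 Mb with at least 15 genes, the 3 with the highest median log2 ratio adjoined each other on chromosome 14, between 50 and 80 Mb, at 0.93, 0.96 and 1.18. The next window, on chromosome 10, was at 0.60, and the lowest was the mitochondrial genome at -0.42, followed by a window at -0.30. All 12 mitochondrial protein genes listed were lower in OE, each under 2-fold, and the Y chromosome is described above. In the segment 208 of 220 genes were above KO, 2-fold calls numbered 109 higher (49.5%) and 2 lower, and the median log2 ratio was 1.0. On the remainder of chromosome 14 the median log2 ratio of 212 genes was 0.07. WT lay within 25% of OE for 129 of the 220 genes, as in Tpt1 (named after its values were seen), a gene of translation and growth, with 35531 in OE, 17811 in KO and 28526 in WT. The median log2 ratio of WT over OE in the segment was -0.14, so at the median the segment differed mostly by a low level in KO. Of its 109 higher genes 39 had WT within 25% of OE and 67 were stepwise. In Zmym2, Nefm and Nefl WT was nearer to KO than to OE. Elsewhere 52 of 1607 higher genes had WT within 25% of OE. The segment contains Zmym2 and gave 6.35% of all higher genes, and without it 1607 genes were higher and 731 lower. The cause of this level was not tested.

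**Figure D5:**
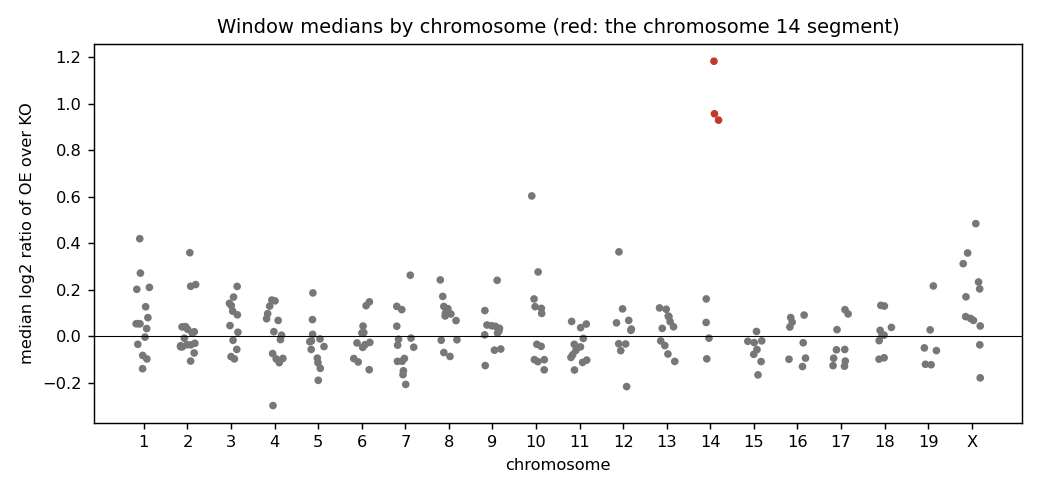
Each point is the median log2 ratio of OE over KO in 1 window of 10 Mb with at least 15 genes of mean 200 or more, placed by chromosome. The 3 red points, at 0.93 to 1.18, are the windows between 50 and 80 Mb of chromosome 14, and all other windows on the chromosomes drawn lie between -0.30 and 0.60.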

How the data were processed

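RNA-seq of 1 library each of Zmym2 OE, KO and WT E14tg2a ESCs was used. Per the paper's methods, the authors removed ribosomal RNA and prepared stranded libraries, then trimmed reads with Trim Galore, aligned them to GRCm38 (mm10) with TopHat2, counted them with featureCounts and normalised with DESeq2. For the annotation release, no source used here gives one. The signal deposited by the authors is a gene's count over a DESeq2 size factor. In each library 100% of values were whole multiples of 1 read (tolerance 1e-06), so reads were recovered by division. Levels carry no length normalisation, and no levels of different genes were compared. Depth is given with the results. Columns of other tables (4) were not used, nor was a table of repeat families.

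Ratios are log2((OE + 1)/(KO + 1)), with calls at 2-fold, for genes averaging 50 or more. Ratios of single genes are of normalised counts, with exact 95% Clopper-Pearson counting intervals. No count test was run, as each condition has 1 library. The members and the 49 gene lists were chosen with earlier results of these data known. Genes named were Zmym2, genes of the paper's marker figure and qPCR list, the 15 largest and 15 smallest ratios that reached 100 in the library where they were higher (predicted genes, ribosomal genes and pseudogene-like names were passed over), the 10 largest stepwise and the 5 largest with WT outside in each direction, up to 6 members per list, and 4 at the minimum. Other list members were named after their values were seen. Positions came from GENCODE M21 (99.2% of genes), promoter windows from RefSeq for 73.1% of genes (9479). Python 3.11.15, pandas 2.3.3, scipy 1.17.1, matplotlib 3.10.9, R 4.3.3 and edgeR 4.0.16 (TMM factors only) were used. The counting was tested on simulated data. Alternatives were other scalings, pseudocounts, minimums, folds and steps.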

Additional observations from a re-analysis of the deposited data

How the results depend on the processing

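No paired analysis was possible because each condition has 1 library, and for the same reason no replicate could be left out. The counts of genes at least 2-fold apart moved with the minimum mean and with the fold. They were 1128 higher and 375 lower at a minimum of 200, 4506 and 3544 with no minimum, 2691 and 1465 at 1.5-fold, 989 and 343 at 3-fold, and 697 and 220 at 4-fold. The share with WT between was 81.5% at a minimum of 20 and 87.2% at 200, and 78.9%, 87.8% and 89.5% at 1.5-, 3- and 4-fold. With a step of 1.5-fold in place of 25%, 779 genes were stepwise, against 1418. Under the other scalings (total gene reads, TMM factors, housekeeping genes with or without B2m), other pseudocounts, without the chromosome 14 segment (chosen after seeing the data) and with protein-coding genes only, higher counts ran between 1500 and 1787 and lower counts between 654 and 892. Among these the balance moved most under the housekeeping list, described with the results, where 1500 genes were higher and 892 lower, so its direction stayed. Of 211 named genes called 2-fold, 211 stayed called under TMM factors, 210 under total gene reads and 207 under the housekeeping list. No result among these counts and named genes reversed. Low counts limit the largest ratios, since 30 higher genes had 3 reads or fewer in KO and 7 lower genes in OE.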
